A study of Mus musculus with 6 samples.

Results

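The subject here is the mouse Hox gene family in fetal intestine: the 36 genes of the 4 Hox clusters whose symbols read Hoxa, Hoxb, Hoxc or Hoxd followed by a paralog number, out of 24568 genes in the deposited matrix. Hoxa contributed 11 members, Hoxb 9, Hoxc 7 and Hoxd 9. The rule reads symbols only and uses no measured value. The tissue was small intestine of C57/BL6 embryos of a Pdgfra-H2BGFP line, in which a nuclear green fluorescent protein reports on Pdgfra, a growth factor receptor gene of mesenchymal cells. Embryos were taken at 5 ages, with pooled replicates (at E13.5 there were 4, at E14.5 there were 3, and the ages E15.5, E16.5 and E18.5 had 2 apiece). Intestines were cut along their length into pieces of 2.5 mm (from 3 in the youngest embryos through 5, 10 and 15 to 20 in the oldest), and every piece was marked with its own lipid-bound DNA barcode before capture. The 6 samples comprised, for E15.5 with E16.5 and likewise for the other 3 ages, 2 wells of unselected live cells (DAPI and Ter119 negative) and 1 well enriched by sorting for CD31, CD45, Epcam or high GFP.

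Hox proteins are homeodomain transcription factors that give cells positional identity along the body axis. In each cluster the genes lie in the order of their paralog numbers, and genes of low number are used earlier and further forward in the embryo than genes of high number, a relation called collinearity. In the gut the family is expressed mainly in the mesoderm-derived wall, and its members mark successive stretches of the tube. The descriptions given to GEO state no purpose for Hox measurements, and the question taken here is whether the order of the clusters can be read in single cells.

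The matrix is 1 pooled sample. Its barcodes carry 6 suffixes, named here sets A1, A2, A3, B1, B2 and B3, and no label ties a suffix to a sample, an age or a gut segment. Sets are therefore technical parts and not replicates, no test was made, and every 95% interval covers counting error only. After filtering, 12630 of 13127 cells remained, with median unique molecular identifiers (UMIs, counted transcript copies) per cell of 12121, 13574 and 7070 in A1 to A3 and 4182, 4118 and 3548 in B1 to B3. The A and B sets rest on different gene lists: 21283 symbols had counts in A, 18178 in B and 17348 in both. Mesenchymal markers (7 genes) summed to between 3999 and 7156 UMIs per 1000000 (CPM) by set, endothelial markers to at most 49.5 CPM and blood markers to at most 70.2 CPM, so mesenchymal transcripts prevailed. Enterocyte markers (5 genes) stood at 2326 CPM in A3 and at 32.0 to 492 CPM in the other sets. Sets A3 and B3 stood apart with 3066 and 2610 CPM of 8 markers of PDGFRA-high mesenchyme, against 769 to 1134 CPM elsewhere. Of the barcode sequences, 22 occurred in more than 1 set.

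Proximal promoter sequence is shown for 4 members that bracket the pattern described below, Hoxa2 and Hoxa5 from the front of the order and Hoxa7 and Hoxd8 from the back. The stretches run 5′ to 3′ on the gene's strand and, except for Hoxa7, end where the RefSeq transcript begins (GRCm38.p6, which is the mm10 build of the deposited counts). Hoxa2 is at chr6:52164832-52165081 and Hoxa5 at chr6:52204588-52204837, both on the minus strand. Hoxa7 is given at chr6:52218712-52218823 on the minus strand, the part of its window that lies outside annotated exons. This part is 112 bases long and stops short of the transcript start. Hoxd8 is at chr2:74704365-74704614 on the plus strand. Capitals mark matches to 4 short motifs: TGATNNAT, bound by PBX with HOX partners, TGACAG of MEIS factors, TTTATG of CDX factors, and AGGTCA of retinoic acid receptors, each searched on both strands.
Hoxa2: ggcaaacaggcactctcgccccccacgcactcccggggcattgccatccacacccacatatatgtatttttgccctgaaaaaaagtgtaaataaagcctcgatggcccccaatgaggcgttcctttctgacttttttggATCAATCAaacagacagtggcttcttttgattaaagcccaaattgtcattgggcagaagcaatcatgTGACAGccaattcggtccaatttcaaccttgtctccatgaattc
Hoxa5: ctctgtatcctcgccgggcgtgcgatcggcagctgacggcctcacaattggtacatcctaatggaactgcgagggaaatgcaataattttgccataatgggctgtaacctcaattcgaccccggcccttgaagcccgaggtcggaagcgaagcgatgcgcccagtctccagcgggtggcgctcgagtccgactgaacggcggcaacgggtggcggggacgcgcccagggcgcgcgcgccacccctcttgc
Hoxa7: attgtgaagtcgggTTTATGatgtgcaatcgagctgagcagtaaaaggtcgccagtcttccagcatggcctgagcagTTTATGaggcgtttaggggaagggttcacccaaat
Hoxd8: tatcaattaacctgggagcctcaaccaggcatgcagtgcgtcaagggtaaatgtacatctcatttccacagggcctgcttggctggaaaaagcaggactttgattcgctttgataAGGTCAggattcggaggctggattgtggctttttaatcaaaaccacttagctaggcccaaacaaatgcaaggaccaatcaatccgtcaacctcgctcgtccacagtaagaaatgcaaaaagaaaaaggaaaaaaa

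The Hoxa2 stretch holds a PBX with HOX match at position 140 and a MEIS match at 207, counted from its 5′ end. The Hoxa7 stretch holds CDX matches at 15 and 78, the Hoxd8 stretch an AGGTCA match at 116, and the Hoxa5 stretch none of these letters. Of 32851 RefSeq windows of 250 bases, 7.68% hold TGATNNAT, 15.9% TGACAG, 10.8% TTTATG and 14.02% AGGTCA. These matches describe the letters and say nothing about binding in these cells. CDX transcripts themselves were scarce: over all sets the 4 ParaHox genes found (Pdx1, Cdx1, Cdx2 and Cdx4) summed to 3.01 to 3.86 CPM in any tier of the cell order introduced below. In A3, where enterocyte markers were highest, Cdx2 stood at 6.66 and 8.97 CPM in the low and high tiers.

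Hox transcripts made up 84760 UMIs, or 861.9 CPM. Hoxb genes gave 421.7 CPM, 48.9% of all Hox UMIs, Hoxa genes 234.7 CPM, Hoxc genes 187.8 CPM and Hoxd genes only 17.7 CPM. By paralog number, levels were highest at 4 (215.7 CPM), with lower peaks at 2 (118.9 CPM) and 8 (121.0 CPM). They dropped to 15.3 CPM at 9, 0.94 CPM at 10 and 0.36 CPM at 11. These are sums over unequal numbers of genes, with 2 genes at number 2, 4 at number 4 and 3 at number 8. Paralogs 1 to 5 held 67.99% of Hox UMIs (Clopper-Pearson interval 67.67 to 68.30). Between the sets the share of paralogs 1 to 5 ran from 55.9% in A3 to 71.5% in A1. CPM here count 3′ ends, so they can be set side by side without a length correction, although capture may differ between genes.

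Of the 36 members, 3 had no UMI (Hoxa13, Hoxd12 and Hoxd13, each with a limit of 0.031 CPM), 15 had between 1 and 317 UMIs, and 18 had 1255 or more. The 18 are Hoxa2 to Hoxa5 and Hoxa7, Hoxb2 to Hoxb8, Hoxc4 to Hoxc6, Hoxc8 and Hoxc9, and Hoxd8, and they held 98.5% of Hox UMIs. They are the members whose pairs are compared below. The orders of cells by Hoxa and Hoxb genes and by all Hox genes also used the sparser members. Hoxa6, at 317 UMIs, was the highest left out and Hoxc9, at 1255, the lowest kept.

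Hoxb4 led the family. It was counted at 123, 128 and 123 CPM in A1 to A3 and at 79.8, 92.7 and 144.2 CPM in B1 to B3. Its B values lie on both sides of its A values. Hoxa5, which has known roles in the mesenchyme of gut and lung, was at 89.8, 95.8 and 91.0 CPM in A1 to A3 and 77.1, 83.1 and 126 CPM in B1 to B3, again with B3 highest. Hoxb2 differed by ending, at 130, 124 and 97.5 CPM in A against 36.1, 39.3 and 47.9 CPM in B. Hoxb6 showed the same gap, at 39.2, 39.2 and 43.2 CPM in A against 9.37, 9.11 and 17.2 CPM in B. Such gaps were not particular to these genes. Hoxa2, Hoxb7, Hoxc5, Hoxc6 and Hoxc8 were also lower in every B set than in every A set. So was the sum of all Hox genes, at 901, 928 and 1044 CPM in A against 609, 635 and 895 CPM in B. The share of all genes with such a gap was not counted. Gene lists and depth differ between the endings, and their part in these gaps was not tested.

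The posterior Hoxc genes were richest in set A3. Hoxc8 stood at 138 CPM there, against 64.0 CPM in A1, 71.6 CPM in A2 and 44.9 to 47.6 CPM in the B sets. Hoxc6 was at 96.2 CPM in A3 and at 37.3 to 50.02 CPM elsewhere, and Hoxc9 at 26.1 CPM in A3 against 9.16 to 15.2 CPM elsewhere. Hoxd8 was at 30.7 CPM in A3 and 21.7 CPM in B3, and at 9.65 to 11.96 CPM in the other 4. Sets A3 and B3 are those rich in PDGFRA-high markers, but in B3 Hoxc6, Hoxc8 and Hoxc9 stayed within the range of the other sets, and the part of cell composition was not tested. The other members at 20 CPM or more were Hoxa2 (14.2 to 23.9 CPM by set), Hoxa3 (17.2 to 52.9), Hoxa4 (31.2 to 69.8), Hoxa7 (20.6 to 44.6), Hoxb3 (38.4 to 55.9), Hoxb5 (52.2 to 63.4), Hoxb7 (16.1 to 30.2), Hoxb8 (33.6 to 64.1) and Hoxc4 (27.3 to 49.1). Of these 15 Hoxb5 varied least over the sets. Hoxc5, just under that level, ran from 9.82 to 21.9 CPM.

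**Figure D1:**
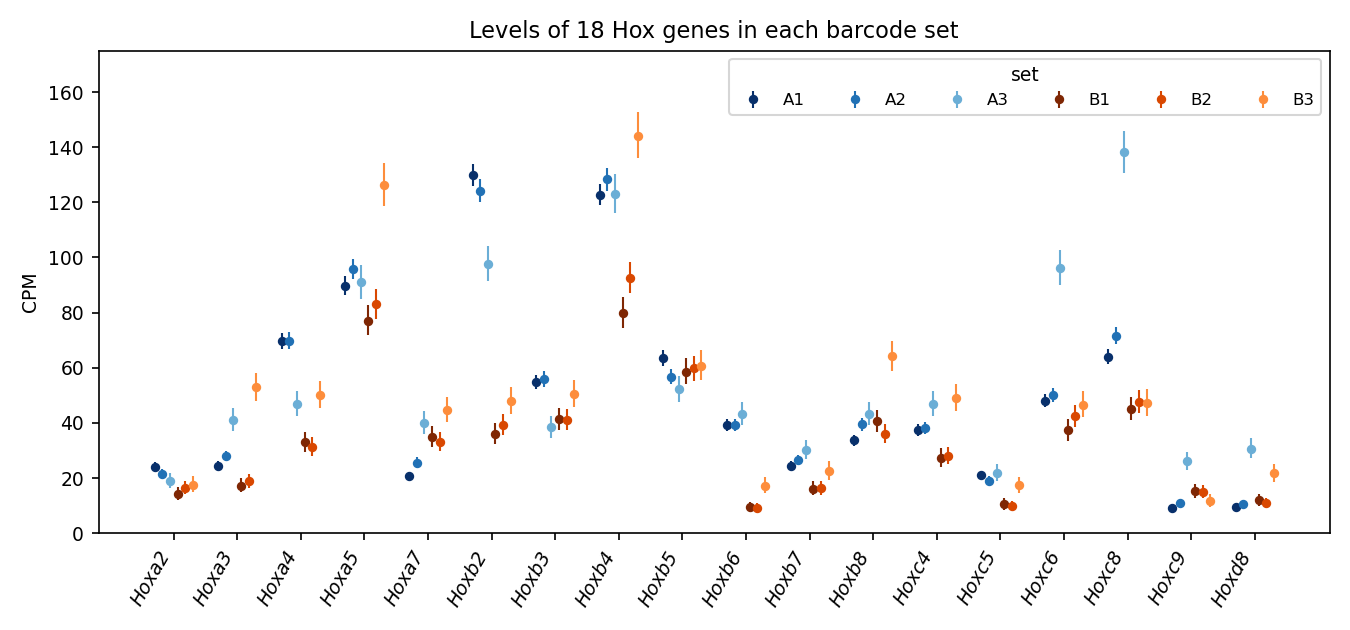
CPM (vertical axis) of the 18 Hox genes with at least 1000 UMIs (horizontal axis) in the 6 barcode sets, as points with exact Poisson 95% intervals for counting error. Hoxb2 and Hoxb6, among other members, lie lower in all 3 B sets than in all 3 A sets, and Hoxc6 and Hoxc8 are highest in A3.

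Most of the 15 sparse members belong to the ends of their clusters. Hoxd4 had 201 UMIs, at 2.43, 2.89 and 4.52 CPM in A1 to A3 and at most 0.089 CPM in a B set, where 4 UMIs were filed under the symbol Hoxd4.1. Hoxb1 had 6 UMIs and Hoxd1 had 3. Hoxa9 had 145 UMIs, Hoxd3 124, Hoxd9 58, Hoxb9 51 and Hoxc10 45. Hoxa10, Hoxa11, Hoxc11, Hoxd10 and Hoxd11 had 1 to 28 each.

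Members differed in how far their UMIs were packed into few cells. If every cell of a set held Hoxc8, a posterior trunk gene, at the set's mean rate per UMI, 4561 cells would show it, but 2627 did, a ratio of 0.58. The cells that had it carried 2.55 UMIs on average and up to 17. By set the ratio ran from 0.50 in A2 to 0.76 in B2. Hoxb4 was found in 0.93 of the cells expected, Hoxb2 in 0.91, Hoxa4 in 0.82 and Hoxa7 in 0.79.

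Next, for each of the 153 pairs of the 18 genes, cells with both genes were counted and set against the number expected if detection were independent among cells of the same set and UMI decile. Pairs of other genes in the same level range (12.8 to 118 CPM) gave the background: of 21853148 pairs, 0.024% lay at least 1.5-fold from expectation, 0.00842% over and 0.0155% under it, and their median log2 ratio was 0.01. Among the Hox pairs 11 lay 1.5-fold over and 11 lay 1.5-fold under, and the median of all 153 was 0.06. Pairs with numbers 1 apart had a median log2 ratio of 0.21 (38 pairs) and pairs 4 or more apart a median of -0.12 (43 pairs), a difference of 0.33. The difference was 0.25, 0.23 and 0.32 in A1 to A3 and 0.67, 0.60 and 0.65 in B1 to B3, positive in all 6 sets and larger in the shallower B sets.

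The relation was not limited to genes on the same chromosome. Neighbours in the same cluster can share reads or transcripts, whereas Hoxa, Hoxb, Hoxc and Hoxd lie on different chromosomes. Near minus distant was 0.28 for pairs within a cluster (12 near, 11 distant) and 0.28 between clusters (26 near, 32 distant). Between clusters the median was 0.13 at the same number and 0.14 at 1 apart, and then fell to 0.10, -0.03, -0.11 and -0.12 at 2 to 5 apart and -0.37 at 6 apart (7 pairs). Within clusters it fell from 0.25 at 1 apart to 0.14, 0.05, -0.03 and -0.09 at 2 to 5 apart, and the single pair 6 apart (Hoxb2 with Hoxb8) stood at -0.0037. The pairs share genes and cells, so these medians are descriptions.

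**Figure D2:**
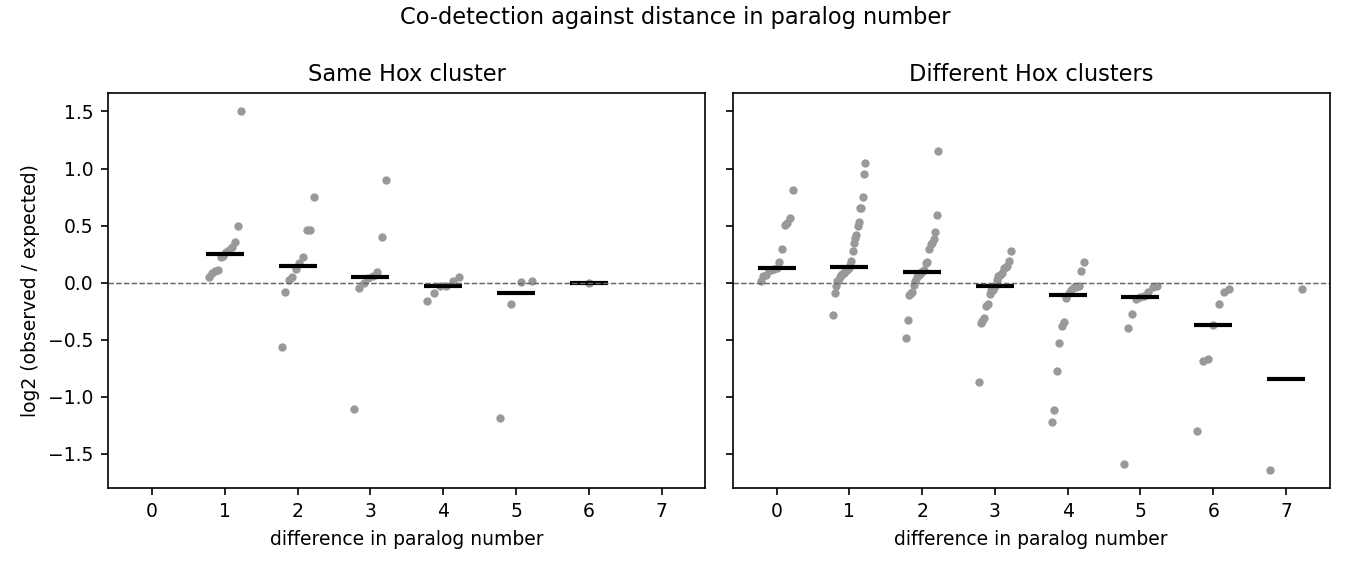
Log2 of observed over expected cells with both genes (vertical axis) against the difference in paralog number (horizontal axis), for pairs in the same cluster (left) and in different clusters (right); grey points are pairs and black bars medians. Within clusters medians go from 0.25 at 1 apart to -0.09 at 5 apart (the single pair 6 apart is near 0), and between clusters from 0.14 at 1 apart to -0.37 at 6 apart.

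The pairs fell into blocks, a grouping made after the values were seen. Hoxa2 to Hoxa5 were found together more often than expected in 6 of 6 pairs, with a median log2 ratio of 0.32. Hoxa4 and Hoxa5, for example, shared 2043 cells against 1599 expected. The 8 genes with numbers 6 to 9 (Hoxa7, Hoxb6, Hoxb7, Hoxb8, Hoxc6, Hoxc8, Hoxc9 and Hoxd8) were found together more often in 28 of 28 pairs, with a median of 0.52, and these include the 11 pairs past 1.5-fold. Between the blocks, 31 of 32 pairs were found together less often, with a median of -0.37, and these include the 11 pairs below. The split runs through the Hoxa cluster between Hoxa5 and Hoxa7, which shared 576 cells against 853 expected.

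By set, the block medians kept their signs, in the same cells that the grouping was made from. For Hoxa2 to Hoxa5 among themselves the median ran from 0.26 in A1 to 0.56 in B1. For numbers 6 to 9 it ran from 0.42 in A2 to 0.88 in B3, and between the blocks from -0.30 in A2 to -0.78 in B2. Single pairs went the other way: between the blocks 5 pairs lay over expectation in A3, 4 in B2, 5 in B3 and 1 each in A1, A2 and B1, and among numbers 6 to 9 1 pair lay under it in A1, 1 in B1 and 2 in B2. With expectation taken also within expression clusters made without Hox genes, the medians were 0.23, 0.42 and -0.35, and all 32 pairs between the blocks lay under expectation.

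Hoxb2 to Hoxb5, Hoxc4 and Hoxc5 stayed nearer to expectation. By the ratio of observed to expected cells, the log2 values of their 87 pairs with any member ran from -0.36 to 0.34, with a median of 0.05. None passed 1.5-fold in either direction. Of the background pairs only 0.024% did, so that count of 0 says nothing particular about these genes. Hoxb2 and Hoxb4, for example, shared 3113 cells against 3055 expected. A ratio of counts cannot move far from 1 when both genes are in many cells, so odds ratios are given too, on the log2 scale. They ran from -0.81 (Hoxb5 with Hoxc8) to 0.66 (Hoxb7 with Hoxc5), with 0.20 for Hoxb2 with Hoxb4. Hoxb5 leaned to the front, with 4 of 4 pairs with Hoxa2 to Hoxa5 over expectation and 7 of 8 pairs with numbers 6 to 9 under it. Its log2 odds ratios were 0.65 with Hoxa5, 0.64 with Hoxa4, -0.69 with Hoxa7 and -0.63 with Hoxc9.

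The highest pair was Hoxc8 with Hoxc9, adjacent posterior genes of 1 cluster, at 652 cells against 230.5 expected (log2 ratio 1.5). By set, 159, 176 and 141 cells in A1 to A3 stood against 54.5, 63.0 and 65.0 expected, and 65, 69 and 42 in B1 to B3 against 17.1, 20.5 and 10.3. It was followed by Hoxa7 with Hoxc9 (1.16), Hoxa7 with Hoxc8 (1.05), Hoxc9 with Hoxd8 (0.95) and Hoxc6 with Hoxc9 (0.90). In 3 of these 5 pairs the genes are on different chromosomes. All 5 pairs were over expectation in all 6 sets.

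The lowest pair with an expected count of at least 5 in each set was Hoxa4 with Hoxc9, at 86 cells against 258.4 expected (-1.59). By set, 35, 33 and 7 cells in A1 to A3 stood against 87.0, 98.7 and 30.3 expected, and 7, 1 and 3 in B1 to B3 against 15.4, 15.3 and 11.7. Hoxa2 with Hoxc8 (-1.30), Hoxa4 with Hoxc8 (-1.22), Hoxa2 with Hoxa7 (-1.18) and Hoxa5 with Hoxc9 (-1.11) followed, and all 5 were under expectation in all 6 sets. Hoxa2 and Hoxa7 are in the same cluster and were still found together in 135 cells against 306.9 expected.

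**Figure D3:**
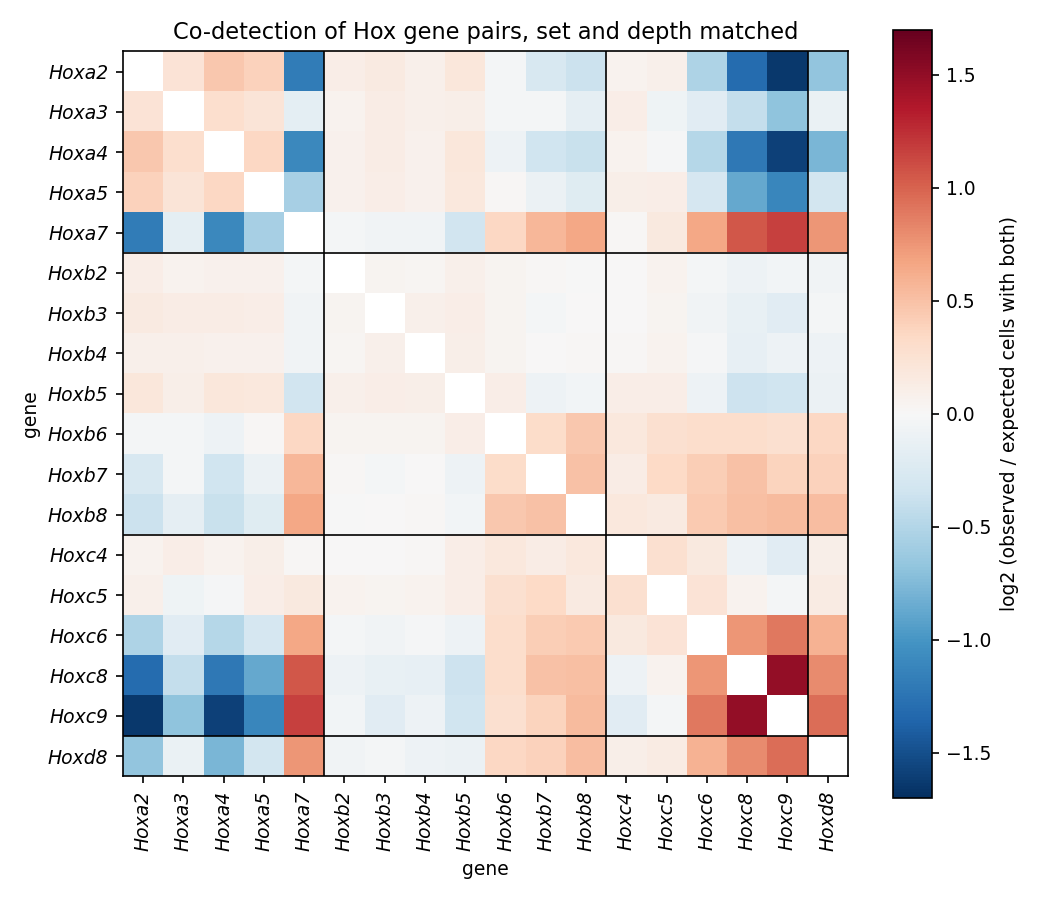
Log2 of observed over expected cells with both genes (colour) for all 153 pairs of the 18 Hox genes on both axes, ordered by cluster and number, with lines between clusters. Hoxa2 to Hoxa5 are blue against Hoxa7, Hoxc8 and Hoxc9, where values reach -1.64, and Hoxc8 with Hoxc9 is the darkest red at 1.5.

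Cells were then ordered by their Hox content. The position of a cell was the mean paralog number of its Hox UMIs, and cells were split into 3 equal tiers of low, middle and high position within each set and UMI quintile. The first order used Hoxa and Hoxb genes alone and was read out in Hoxc and Hoxd, which it did not use. Among 4876 cells with at least 5 Hoxa and Hoxb UMIs, the mean paralog number of summed Hoxc and Hoxd UMIs was 5.96 in the low, 6.20 in the middle and 6.70 in the high tier. The rise from low to high was 0.73, with 0.58, 0.77 and 0.82 in A1 to A3 and 1.21, 1.5 and 1.31 in B1 to B3. The low tier held 1136, 1085 and 303 Hoxc and Hoxd UMIs in A1 to A3 but only 37, 42 and 47 in B1 to B3. These rises have no interval, so their size is not compared between sets. Median depth was 12192 UMIs in the low and 11869 in the high tier.

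Each gene was also read across an order made from the 3 clusters it does not belong to, a comparison added after the first results were seen. Background was taken from genes other than the 36 members. Those at least 1.5-fold higher in the high tier made up 0.957%, 1.19%, 0.474% and 0.959% in the orders used for Hoxa, Hoxb, Hoxc and Hoxd genes, and those at least 1.5-fold lower 0.53%, 0.674%, 0.34% and 0.516%. Of the 8 genes with numbers 6 to 9, 7 were at least 1.5-fold higher and 7 were higher in all 6 sets, with a median log2 ratio of 1.68. Of the 10 genes with numbers 2 to 5, 5 were at least 1.5-fold lower and 7 were lower in all 6 sets, with a median of -0.61, and 1 (Hoxc4) was higher in all 6 sets. The shares above are for the 1.5-fold rule. How many other genes go in 1 direction in all 6 sets of these orders was not counted, so those counts have no background.

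Hoxa7 rose from 11.1 to 28.6 to 53.6 CPM over the low, middle and high tiers (log2 ratio 2.27, interval 2.05 to 2.49). In the single sets its low and high values were 4.41 and 44.2 CPM in A1, 9.11 and 50.8 in A2, 41.5 and 73.0 in A3, 31.9 and 70.2 in B1, 10.3 and 108.8 in B2, and 24.5 and 139.2 in B3. Hoxc8 rose from 28.6 to 58.9 to 118 CPM (2.05, 1.91 to 2.18), Hoxd8 from 5.11 to 21.9 CPM (2.1), Hoxc9 from 4.83 to 19.2 CPM (1.99) and Hoxc6 from 29.4 to 76.2 CPM (1.37). Hoxb8 rose from 23.7 to 57.8 CPM (1.29) and Hoxb7 from 16.2 to 37.2 CPM (1.20). Hoxb6 was the weakest of the 8, at 36.5 and 50.2 CPM, with 4 sets higher and 2 lower (B1 and B3).

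At the front, Hoxa4 fell from 101 to 64.7 to 26.2 CPM (-1.95, -2.09 to -1.80). Its low and high values by set were 104 and 29.1 CPM in A1, 115 and 25.5 in A2, 66.1 and 28.7 in A3, 28.97 and 5.40 in B1, 30.9 and 9.67 in B2, and 62.6 and 2.78 in B3. Hoxa2, whose deletion is known to transform the second branchial arch, fell from 34.5 to 9.08 CPM (-1.93), Hoxa5 from 134 to 44.3 CPM (-1.60) and Hoxa3 from 36.1 to 19.5 CPM (-0.89). Hoxb5 fell from 77.4 to 45.4 CPM (-0.77). Hoxb2 and Hoxb4 were lower in all 6 sets, with pooled log2 ratios of -0.24 and -0.33, to which each set counts by its UMIs. Hoxb4 went from 147 to 116 CPM in A1 and from 151 to 123 in A2, and from 117 to 45.3 in B1 and from 200 to 111 in B3. Hoxb2 went from 149.5 to 136 CPM in A1, and from 58.3 to 31.7 in B1 and from 69.4 to 31.1 in B3. Tier values of a single B set, those of Hoxa4 and Hoxa7 included, rest on small counts and have no interval. The steepness of a fall or rise is therefore not compared between sets. Hoxb3 was lower in 4 sets, Hoxc5 higher in 4, and Hoxc4 moved from 37.0 to 42.7 CPM (0.21).

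**Figure D4:**
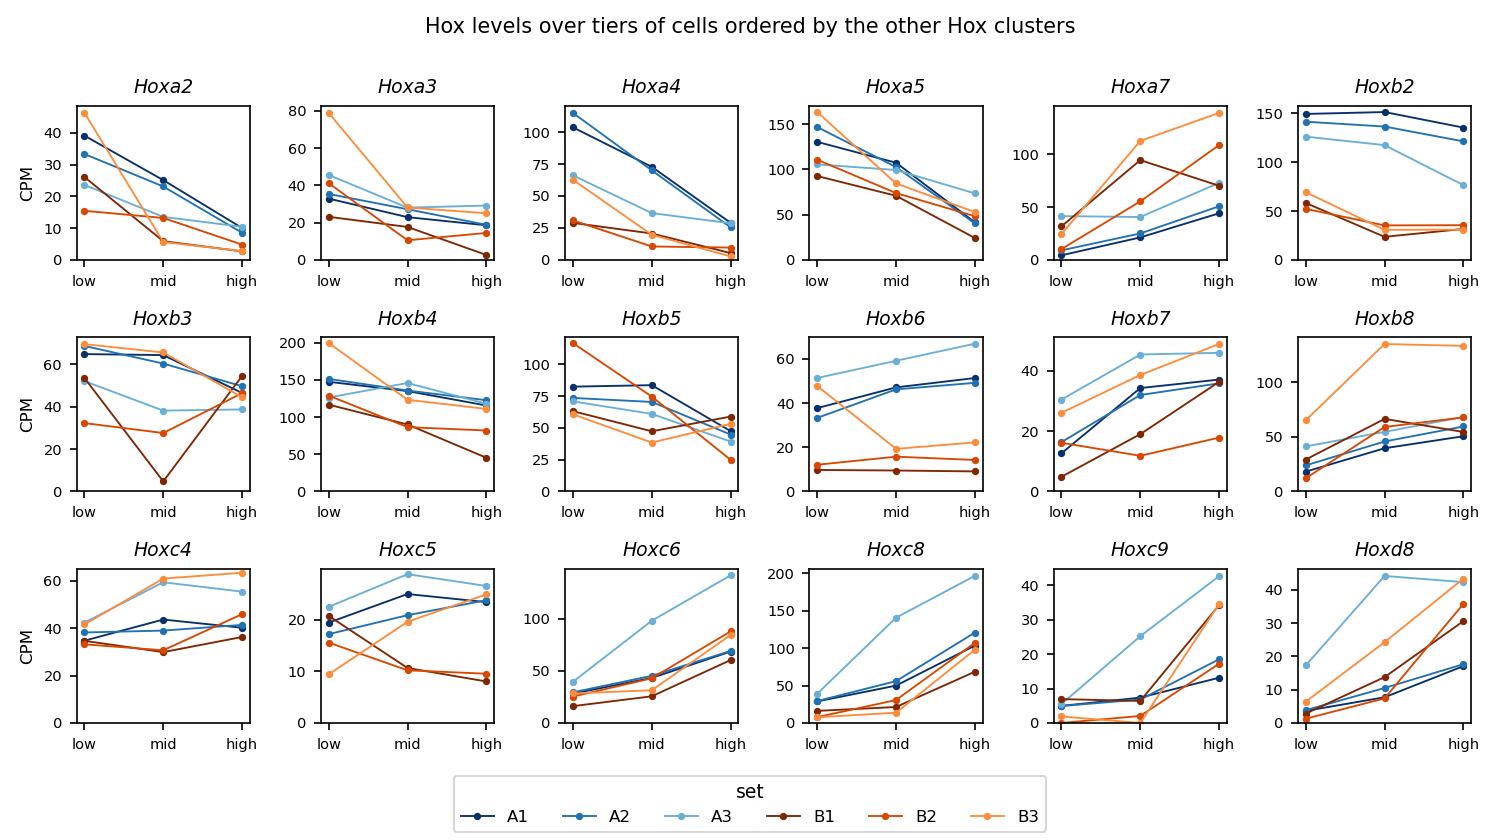
CPM (vertical axes, from 0, own scale in each panel) of the 18 Hox genes in cells of low, middle and high position in the order made from the other 3 clusters (horizontal axes), with 1 line per barcode set. Hoxa2, Hoxa4 and Hoxa5 fall and Hoxa7, Hoxc6, Hoxc8, Hoxc9 and Hoxd8 rise from low to high in each of the 6 sets. Hoxb2 and Hoxb4 also end lower in each set, and lines of the B sets rest on small counts.

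The sparse posterior genes leaned to the same side where they could be counted. Across the order by the other clusters, Hoxa9 had 8 UMIs in the low and 95 in the high tier (log2 ratio 3.58, 2.55 to 4.84), Hoxd9 4 and 41 (3.34, 1.88 to 5.29), Hoxc10 4 and 28 (2.80, 1.28 to 4.77) and Hoxb9 1 and 28 (4.80, 2.20 to 10.2). Hoxa6 had 52 and 120 UMIs (1.22, 0.74 to 1.72). Hoxd4 went with the posterior genes at 30 and 92 UMIs (1.60, 0.99 to 2.25), all of them in A sets. Hoxd3 had 32 and 34.

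Every sample pooled several ages, and no label ties a set to an age or a gut segment. Position along the gut and age therefore cannot be told apart in this order. Over all Hox genes, 6256 cells with at least 5 Hox UMIs were ordered, and 34.7% of them lay within 0.25 paralog numbers of a boundary between tiers; the tiers are ranges of a score and are not offered as cell types. Mean positions were 3.81, 4.76 and 6.10. Beside the order, the summed markers of PDGFRA-high mesenchyme stood at 1022, 1119 and 1235 CPM, of which Wnt5a went from 88.4 to 194 CPM in the low and high tiers while Pdgfra was at 234 and 247 CPM and Sox6 at 20.1 and 15.1 CPM. Those of smooth muscle (5 genes) stood at 1043, 1100 and 1217 CPM, higher in the high tier of A1, A2 and B1 and lower in that of A3, B2 and B3, and those of cycling cells (6 genes) at 1681, 1554 and 1375 CPM. Markers of enterocytes stayed at 605, 608 and 612 CPM, and median depth was 10494 and 10537 UMIs in the low and high tiers. The parts of these markers in the results below were not tested.

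Of 6785 genes not named Hox, 0.943% were at least 1.5-fold higher and 0.516% at least 1.5-fold lower in the high tier of this order. By the stricter rule, 32 (0.472%) were at least 1.5-fold higher in the high tier and higher in all 6 sets, and 19 (0.280%) were lower by the same rule. The median log2 ratio of all genes tested was -0.02. Fst, which encodes the activin antagonist follistatin, rose from 17.0 to 31.9 to 85.9 CPM (2.34). Its low and high values were 8.95 and 74.3 CPM in A1, 8.13 and 80.7 in A2, 72.0 and 149 in A3, 8.30 and 76.2 in B1, 23.4 and 80.1 in B2, and 42.0 and 109 in B3. Nr2f1, an orphan nuclear receptor, rose from 16.5 to 51.7 CPM (1.65), Hpse2, a relative of heparanase, from 29.3 to 76.3 CPM (1.38), Rassf9 from 21.6 to 54.7 CPM (1.34) and Adamdec1, a metalloproteinase gene of intestinal mesenchyme, from 1246 to 2891 CPM (1.21). Adamdec1 was at 6291 CPM in the low and 13917 CPM in the high tier of A3, where PDGFRA-high markers were highest. Among those markers themselves, Wnt5a passed the same fold (1.13).

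Asb4 fell most, from 103 to 44.8 CPM (-1.21), followed by Hotairm1 (69.5 to 34.4 CPM, -1.01), Peg3 (481 to 242 CPM, -0.99), Plac8 (300.1 to 152 CPM, -0.98) and Tspan12 (54.7 to 28.2 CPM, -0.96). Asb4 and Peg3 are imprinted genes, but Cdkn1c, also imprinted, went the other way, from 768 to 1186 CPM (0.63), and was higher in all 6 sets. Hotairm1 is a noncoding RNA at the front of the Hoxa cluster (6:52158524-52162020), beside Hoxa2. Below the 50 CPM set for naming, and picked after its values were seen, Gm15050 (6:52172881-52174059), another noncoding RNA within the Hoxa cluster, had the lowest ratio of the 19, at 41.4 and 14.1 CPM (-1.55). Ror1 (-1.38), P2ry14 (-1.37) and Cxxc4 (-1.35), also below that limit, fell more than Asb4 too. Skap2, the gene next to the front end of the cluster (6:51859165-52012549), was also among the 19 (-0.59). How strand was treated in counting is not given in the sources used here, so reads of these noncoding RNAs and of overlapping Hoxa transcripts cannot be told apart.

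**Figure D5:**
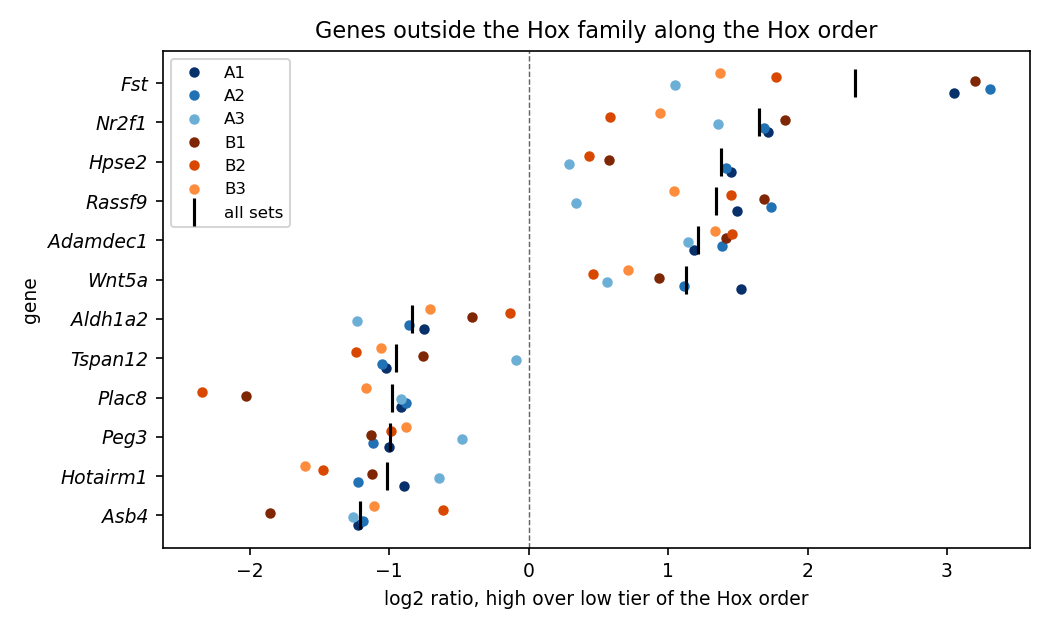
Log2 ratio of CPM in the high over the low tier of the order by all Hox genes (horizontal axis) for named genes other than Hox members and for Wnt5a and Aldh1a2 from the marker and retinoic acid lists (vertical axis); coloured points are the barcode sets and black bars all cells. Every point of a gene lies on 1 side of 0 (a set with 0 CPM in the low tier, B3 for Hpse2, has no point), and the sets differ most for Fst.

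Genes that work with Hox proteins were read by the same rule, which 0.472% of all genes passed upward and 0.280% downward, so a count of 0 in a short list says nothing particular about it. Of 9 cofactor genes (Meis, Pbx and Pknox families, which bind DNA beside Hox proteins), 7 had at least 20 CPM and 0 passed 1.5-fold in 1 direction in all sets. Meis2 was at 486 and 386 CPM (-0.33) and Pbx3 at 77.2 and 62.6 CPM (-0.30). Of 8 chromatin regulators of Hox loci, 7 were measured at that level and 0 passed, with log2 ratios from -0.15 (Suz12) to 0.11 (Rnf2). Of 14 regional regulators of gut mesenchyme 4 were measured at that level and 0 passed. Tbx3 was at 43.0 and 59.8 CPM (0.48) and higher in all 6 sets, and Nkx2-3 at 510 and 424 CPM (-0.27) and lower in all 6. Isl1, a gene of the pyloric region, had 156 UMIs in the low and 25 in the high tier, but with 4 sets lower and 2 higher.

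The retinoic acid pathway, which induces anterior Hox genes in the embryo, had 4 of 10 genes at that level, and 1 passed. Aldh1a2, which makes retinoic acid, fell from 302 to 247 to 169 CPM (-0.84) and was lower in all 6 sets, from 290 and 173 CPM in A1 and 399 and 170 in A3 to 106 and 96.3 in B2. Aldh1a3 was at 67.3 and 44.6 CPM (-0.59) and lower in 5 sets. Rara was at 42.7 and 41.99 CPM (-0.02).

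The most posterior Hox genes were rare. A UMI of any gene with number 10 or 11 was found in 49 of 12630 cells. In 42 of these only 1 such gene was present, and 7 cells, singled out here because they held 2 or more, carried 70 of the 127 UMIs. Since the cells were picked for these genes, their counts are a description. Those 7 cells, 4 in A1 and 3 in A2, held 23 of 25 Hoxd11 UMIs, 19 of 28 Hoxd10 UMIs, 15 of 19 Hoxa10 UMIs and 10 of 11 UMIs of Hoxa11os, the antisense RNA of Hoxa11. Hoxc10, the most abundant of these genes, had 6 of 45 UMIs in them and was found in 28 cells in all. The 7 cells held 0 Hoxa7 UMIs and 1 Hoxc8 UMI. Among all cells Hoxa7 was found in 18.1% of A1 and 22.4% of A2, and Hoxc8 in 27.9% and 30.2%. Counts this low in 7 cells are therefore not read as a lack of these genes. The 7 cells fell into 5 expression clusters of 332 cells or more, and their depth ran from 8395 to 16479 UMIs. All 7 held Fst and Ebf1, which were picked after their values were seen. The share of all cells with Fst or Ebf1 was not counted, so this is not read as a trait of the 7. If every cell had held Hoxd11 at the mean rate, 24.9 cells would have shown it, and 7 did.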

How the data were processed

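The authors deposited 1 matrix of raw UMI counts per gene and cell for all 6 samples, per the file headers and the whole numbers it holds. Cells were captured with 10x v3 chemistry, which reads 3′ ends, per the labels' protocols, and Cell Ranger 2.1.1, Seurat and the mm10 build are named per the submitters' processing notes. For the authors' cell filter, annotation and strand setting: not given in the sources used here. Tables of lipid barcodes were not used here.

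Cells with under 1000 genes or over 5% mitochondrial UMIs were left out. Scrublet in scanpy 1.11.5, run per set at an expected 5%, called 60 cells (0.457%), which is too few to count as a working call; these were removed and doublets may remain. Clusters (leidenalg 0.10.2, 2000 variable genes without Hox genes, 30 components, 15 neighbours, resolution 1) were made within each ending, 17 in A and 14 in B.

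UMIs were summed over cells and divided by their total to give CPM. Intervals are exact (Poisson, Clopper-Pearson, or conditional binomial for log2 ratios; scipy 1.17.1), and a count of 0 allows 3 counts. Expected co-detection is the product of 2 detection shares within set and UMI decile, summed over strata, in place of drawn shuffles. No class that should lack Hox transcripts was at hand, so no share of cells is read as expression. A called gene is at least 1.5-fold apart with at least 20 CPM in the higher tier. No edgeR or other model was fitted, since the pooled matrix has no replicates. The co-detection, order and ratio steps were checked on simulated data.

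Members, lists and comparisons were chosen with earlier results of these data known. Named are members with at least 20 CPM, the 5 highest and 5 lowest pairs with at least 5 expected cells in each set, list genes with at least 20 CPM in a tier, and the 5 largest ratios each way with at least 50 CPM and 1 direction in all sets. Alternatives changed depth strata, filters, minimum UMIs, clusters used, weighting and endings. Added after seeing the data were the order by the other clusters, the odds ratio, the leaving out of A3 with B3 or of overlapping genes, the order by Hoxc and Hoxd, and the cycling marker list. RefSeq windows were found for 22 of 36 members. Some items are not reported here.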

Additional observations from a re-analysis of the deposited data

How the results depend on the processing

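No paired analysis was possible because no label ties the barcode suffixes to the numbered wells. The share of Hox UMIs from paralogs 1 to 5 (67.99%) was 66.2% with sets weighted equally, 66.5% from per-cell CPM, 68.3% in ending A, 66.97% in ending B and 69.6% without A3 and B3. The near minus distant difference (0.33) was 0.54 in ending B and 0.79 as an odds ratio, 0.53 with cells thinned to 2000 UMIs, and 0.23 within expression clusters. The Hoxc and Hoxd shift (0.73) was 1.34 in ending B and 0.58 with the order made within clusters. The number of other genes passing along the Hox order (51) was 29 with at least 10 Hox UMIs, 145 with no CPM minimum, 95 in ending A and 301 in ending B, where fewer sets had to share a direction, and 74 without A3 and B3 (41 of the 51 among them). In ending B alone Hoxb6 (-0.63) and Hoxc5 (-0.062) turned lower across the order by the other clusters; the cause was not tested. Across the 6 alternatives 8 or 9 of the 10 genes with numbers 2 to 5 were lower and 7 or 8 of the 8 with numbers 6 to 9 were higher. Depth limits what single cells show: the median cell held 2 or 3 Hox UMIs in the B sets and 7 to 12 in the A sets.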
